A study of Homo sapiens with 6 samples.

Results

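The heat shock chaperones described here are 39 genes that encode the cytosolic and mitochondrial HSP90, HSP70, HSP110, HSP60 and small heat shock proteins, their cochaperones, and the transcription factors HSF1 and HSF2. They were chosen by gene symbol, with earlier results of these data known. All 39 were found among the 60564 genes of the deposited count table and passed the filter on low counts, which left 18786 genes. Expression was measured by RNA sequencing of total RNA depleted of ribosomal RNA in CAL27 cells. CAL27 is an established line derived from a human tongue carcinoma of squamous type. The study overexpressed CNTNAP2-203, a transcript of the neurexin family gene CNTNAP2, to ask how it acts on the growth of oral squamous carcinoma cells.

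The overexpressing group, CNTNAP2-203 OE, comprised 3 libraries of CAL27 cells infected with a lentivirus that carries CNTNAP2-203. The control group comprised 3 libraries of CAL27 cells infected with the control vector, whose sample descriptions name EGFP and whose genotype is given as WT. All 6 libraries came from cells kept in medium with serum and selected with 5 μg/ml puromycin for 2 weeks, so control cells carry a virus and drug resistance too. The labels give neither the promoter of the construct, nor whether the cells were clones, nor whether each library had its own culture. P-values set the difference between the groups against the variation of libraries within a group, and that variation may therefore be technical. For control replicate 1 the labels state that the reverse reads are missing from the submitted reads, and whether its counts used them is not known.

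Molecular chaperones bind proteins that are unfolded or not yet mature. HSP70 proteins bind short exposed stretches and are driven by J-domain proteins, which stimulate their ATPase, and by exchange factors of the HSP110 and BAG families, which release ADP. HSP90 acts later, on nearly folded clients such as kinases and steroid receptors, and its cochaperones pass clients on and pace its ATPase. In mitochondria the HSP60 ring encoded by HSPD1 closes over a substrate with the HSP10 lid encoded by HSPE1. Many of these genes are induced by HSF1, which binds as a trimer to heat shock elements, arrays of inverted GAA units.

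Heat shock element motifs can be read in the promoters of several members, and are shown because the members that rose include genes with and without one. Windows from 250 bases before to 50 bases after each RefSeq start site (GRCh38.p14) were found for 34 of the 39 members, 48 windows in all, and were not found for FKBP4, HSPA14, STUB1, ST13 and HSF1. The search was for 3 alternating units without a mismatch, GAANNTTCNNGAA or TTCNNGAANNTTC, which are the same motif on the 2 strands. Of 35116 windows of all genes, 172 (0.490%) held it. Among members, 7 of the 34 held it in at least 1 window. Genes with several start sites have several chances. Each site is given 5′ to 3′ on the strand of its gene as 30 bases, with the matched units in capitals.
HSP90AA1, chr14:102087112-102087141, minus strand, first capital 88 bases before the start site: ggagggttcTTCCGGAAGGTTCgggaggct
HSP90AB1, chr6:44247769-44247798, plus strand, 165 bases before: gggagcaggTTCTGGAAGATTCatgggctc
HSP90AB1, chr6:44247822-44247851, plus strand, 112 bases before: ctgagattgTTCTGGAAGCTTCtggattct
HSPA8, chr11:123062346-123062375, minus strand, 230 bases before: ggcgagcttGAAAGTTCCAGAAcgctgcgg
HSPA8, chr11:123062171-123062200, minus strand, 55 bases before: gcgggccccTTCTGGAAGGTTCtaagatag
CHORDC1, chr11:90223084-90223113, minus strand, 60 bases before, with 3 overlapping matches: accgGAAAATTCGCGAAGGTTCCTGAAacg
HSPD1, chr2:197500061-197500090, minus strand, 245 bases before, with 2 overlapping matches: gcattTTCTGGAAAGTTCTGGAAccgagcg
DNAJA1, chr9:33025267-33025296, plus strand, 3 bases after: cgccgggcgGAACTTTCCAGAAcgctcggt
DNAJB6, chr7:157336864-157336893, plus strand, 131 bases before: aagagccgaGAACCTTCGCGAAggtggggc
The HSPD1 site lies before the first base of the HSPE1 window, and the genes are transcribed away from each other. A match describes letters in a window and is not a bound site. The search allowed no mismatch and covered only these windows, so a gene without a match may still have an element.

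The libraries held 36843190 to 42412703 counts in CNTNAP2-203 OE and 38769375 to 41754789 in control. CNTNAP2 had 119280 to 156055 counts in CNTNAP2-203 OE and 0 to 4 in control. CNTNAP2-203 OE replicate 3 had the fewest counts and differed from its group by gene length: its log2 CPM minus the mean of the other 2 libraries of its group correlated with transcript length at a Spearman coefficient of -0.34 across 18522 genes, against -0.18 to 0.29 in the other libraries. Genes share each library and are not independent replicates. The 7 squamous markers (KRT5, KRT14, KRT6A, KRT17, TP63, DSG3, SFN) had 2482 to 271873 counts. None passed the test, and every CNTNAP2-203 OE library lay below every control for KRT17 (log2 fold change -0.57, adjusted p = 0.0848) and DSG3 (-0.64, adjusted p = 0.104), and above every control for KRT5 (0.34, adjusted p = 0.189). Of the 14 markers of other cell types reported here, 6 had 0 to 13 counts (PTPRC, LYZ, PECAM1, KDR, COL3A1, DCN). The other 8 were detected, at 836 to 1331 counts for COL1A1, 363 to 464 for LUM, 71 to 138 for COL1A2 and 28 to 67 for PDGFRB among fibroblast genes, 879 to 1282 for CD14 and 19 to 51 for CD3E among leukocyte genes, and 170 to 410 for CDH5 and 53 to 101 for VWF among endothelial genes. The groups overlapped for each of these 8 genes. The part of these markers in the results was not tested.

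Among the chaperones, 4 of 39 rose in CNTNAP2-203 OE and none fell, by the edgeR quasi-likelihood test at an adjusted p under 0.05 (Benjamini-Hochberg, over all 18786 genes). They were HSP90AA1, the inducible cytosolic HSP90, HSPA8, the constitutive cytosolic HSP70, STIP1, which links HSP70 to HSP90, and HSPE1, the mitochondrial HSP10. Over all tested genes 0.798% were called higher and 0.596% lower, 1.39% in all. Among the 10081 genes with a mean of at least 10 CPM, 1.35% were called higher. The median log2 fold change (CNTNAP2-203 OE over control) was 0.38 over the members and 0.00 (-0.0038) over all genes, and 33 of 39 members had a positive value against 49.6% of all genes. Because the members were chosen with earlier results of these data known, they were not tested as a set. Before adjustment 18 members were higher and 1 was lower at a p under 0.05, compared with 9.41% and 7.84% of all genes. DESeq2 called 15 members higher, limma-voom called 3 and limma-trend on log2 FPKM called 2, against 3.46%, 0.516% and 0.527% of all genes. None of these tools called a member lower, against 2.53%, 0.367% and 0.463% of all genes. The members took up 1.51%, 1.72% and 1.61% of all counts in CNTNAP2-203 OE replicates 1, 2 and 3, and 1.27%, 1.18% and 1.19% in control replicates 1, 2 and 3. In bulk RNA, a change in every cell and a change in the share of cells that express a gene cannot be told apart.

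**Figure D1:**
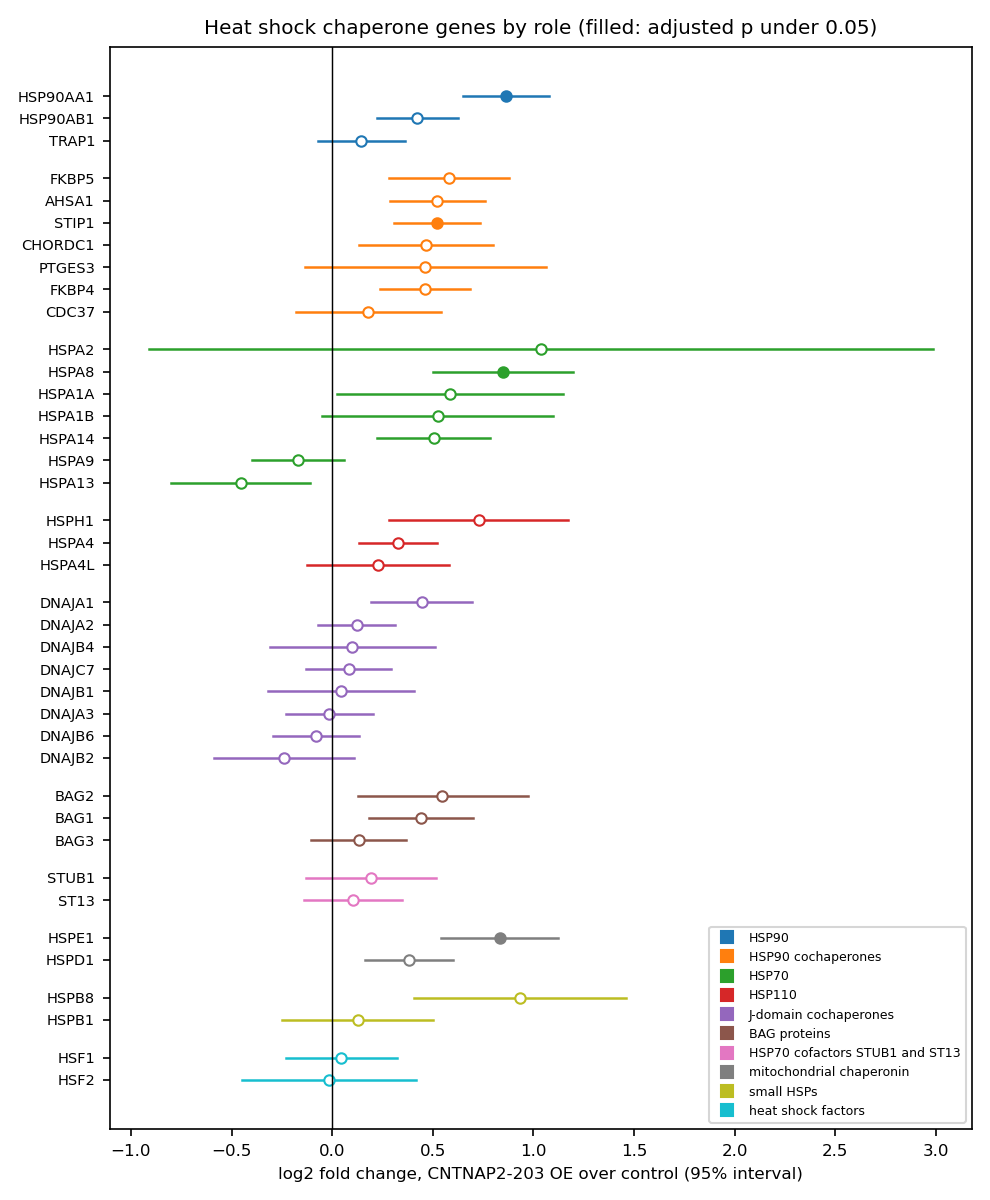
Log2 fold change (CNTNAP2-203 OE over control) of each of the 39 chaperone genes, grouped by role, with the 95% interval of the edgeR fit from 3 libraries a group. Filled points mark HSP90AA1, STIP1, HSPA8 and HSPE1, which had an adjusted p under 0.05; the J-domain genes other than DNAJA1 (0.44) and the heat shock factors lie between -0.24 and 0.12, and HSPA13 and HSPA9 are the HSP70 genes with values below 0.

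Of the HSP90 genes, HSP90AA1 (14:102080738-102139699, minus strand) rose 1.82-fold. Its level was 2541, 2591 and 2644 CPM (TMM-scaled counts relative to library size) in CNTNAP2-203 OE replicates 1, 2 and 3, against 1343, 1505 and 1422 CPM in control replicates 1, 2 and 3. The groups were far apart and the libraries within each close together. The log2 fold change was 0.86 (SE 0.0923, adjusted p = 0.011).

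HSP90AB1, the constitutive cytosolic HSP90, had 2833, 2975 and 2858 CPM in CNTNAP2-203 OE and 2178, 2123 and 2158 CPM in control. Each CNTNAP2-203 OE library lay above each control, but its log2 fold change of 0.42 (95% interval 0.22 to 0.62, adjusted p = 0.0641) did not pass the test. TRAP1, the mitochondrial HSP90, was at 188 ± 9.92 CPM in CNTNAP2-203 OE and 169.6 ± 9.77 CPM in control (SD, n = 3 each), with overlapping groups. Per length, HSP90AB1 was the more abundant cytosolic form, at 782 ± 41.0 FPKM in CNTNAP2-203 OE and 599.6 ± 5.60 FPKM in control, whereas HSP90AA1 was at 398 ± 9.01 and 225 ± 13.6 FPKM. The ratio of HSP90AA1 to HSP90AB1 was 0.509, 0.494 and 0.525 in CNTNAP2-203 OE and 0.3498, 0.402 and 0.374 in control. All 3 CNTNAP2-203 OE libraries had the higher ratio (exact permutation test, two-sided p = 0.1, the smallest that 3 against 3 libraries allow; 0.133 adjusted over 4 ratios computed).

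**Figure D2:**
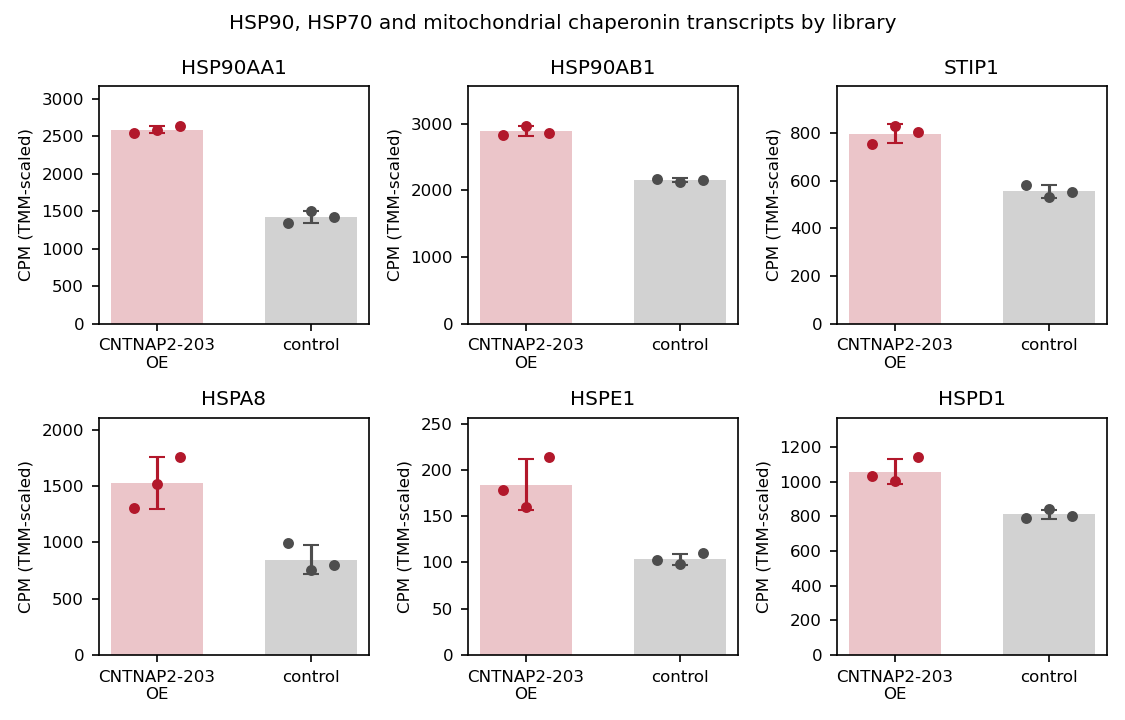
Level in CPM of 4 called chaperone genes (HSP90AA1, STIP1, HSPA8, HSPE1) and of the relatives HSP90AB1 and HSPD1; points are libraries, bars means and error bars the SD of 3 libraries. In each panel the CNTNAP2-203 OE libraries lie above the control libraries, by the widest margin relative to the spread in HSP90AA1.

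Among 7 cochaperones of HSP90, 1 rose (0.798% of all genes were called higher), and the log2 fold change was positive in all 7 (49.6% of all genes). STIP1 (11:64185272-64204543, plus strand) was at 755, 832 and 805 CPM in CNTNAP2-203 OE and at 583.5, 530.3 and 554 CPM in control, with no overlap. This is 1.43-fold (log2 fold change 0.52, SE 0.093, adjusted p = 0.0457). AHSA1, which activates the HSP90 ATPase, had a log2 fold change of 0.52 (adjusted p = 0.0563). FKBP4 and FKBP5, immunophilins of steroid receptor complexes, had 0.46 and 0.58, with adjusted p of 0.0713 and 0.0793, and CHORDC1 had 0.47 with an adjusted p of 0.162. In these 4 genes every CNTNAP2-203 OE library lay above every control, although the genes did not pass. That order held for 13.7% of all genes, or 18.3% of those with a mean of at least 10 CPM. The groups overlapped for CDC37, which brings kinases to HSP90, at 189.5 ± 7.37 CPM in CNTNAP2-203 OE and 167 ± 38.2 CPM in control. PTGES3, the p23 protein that stabilises closed HSP90, spread from 245.5 CPM in CNTNAP2-203 OE replicate 1 to 521 CPM in replicate 3, against 259 to 302 CPM in control.

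Of 7 HSP70 genes 1 rose (0.798% of all genes were called higher), and the genes differed in direction. HSPA8 (11:123057489-123063230, minus strand) had 1301, 1518 and 1756 CPM in CNTNAP2-203 OE and 992, 750.2 and 799 CPM in control. Its 1.80-fold difference exceeded the spread (log2 fold change 0.85, SE 0.151, adjusted p = 0.0451), though CNTNAP2-203 OE replicate 1 and control replicate 1 came nearer to each other than the other libraries. HSPA14, a ribosome-associated HSP70, was at 13.4 ± 0.180 CPM in CNTNAP2-203 OE and 9.45 ± 0.540 CPM in control (adjusted p = 0.0969). Another gene identifier, also named HSPA14, overlaps its exons on the same strand with 95.8% as many counts. Reads may therefore be split between the identifiers, and the values given leave out that other identifier.

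The stress-inducible pair HSPA1A and HSPA1B did not pass. HSPA1A had 673, 1188 and 748.5 CPM in CNTNAP2-203 OE and 698.5, 487 and 551.5 CPM in control. CNTNAP2-203 OE replicate 2 stood well above the rest, and CNTNAP2-203 OE replicate 1 lay below control replicate 1. The log2 fold change was 0.59 (95% interval 0.03 to 1.15, adjusted p = 0.272) for HSPA1A and 0.52 (-0.05 to 1.10, adjusted p = 0.33) for HSPA1B. These genes have nearly the same sequence, so reads can be assigned to either. HSPA2, known from the testis, varied from 15.2 to 37.7 CPM in CNTNAP2-203 OE and from 3.19 to 25.3 CPM in control.

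HSPA8 exceeded HSPA9 in FPKM by 3.77, 4.93 and 5.30 times in CNTNAP2-203 OE and by 2.92, 1.99 and 2.05 times in control (exact permutation test, two-sided p = 0.1, adjusted 0.133).

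The other HSP70 genes had negative values. HSPA9, the mitochondrial HSP70 mortalin, was at 537 ± 30.5 CPM in CNTNAP2-203 OE and 604 ± 43.5 CPM in control (log2 fold change -0.17, 95% interval -0.40 to 0.06). HSPA13, a microsomal HSP70 and so not cytosolic, had 48.6, 46.5 and 35.0 CPM in CNTNAP2-203 OE and 53.6, 66.6 and 58.0 CPM in control. All 3 CNTNAP2-203 OE libraries were below all controls, but the log2 fold change of -0.45 (adjusted p = 0.181) did not pass. Among members, HSPA13 was the 1 gene with this order, which held for 12.8% of all genes. The opposite order, every CNTNAP2-203 OE library above every control, held for 18 of 39 members and for 13.7% of all genes, or 18.3% of those with a mean of at least 10 CPM.

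The HSP110 genes, exchange factors of HSP70, had log2 fold changes of 0.23 (HSPA4L), 0.32 (HSPA4) and 0.73 (HSPH1). None passed edgeR, which called 1.39% of all genes. HSPA4 had 274, 283 and 282 CPM in CNTNAP2-203 OE against 219, 225.5 and 226 CPM in control, which is 1.25-fold with little spread (adjusted p = 0.112). HSPH1 was more variable, at 211, 311 and 189 CPM in CNTNAP2-203 OE and 162, 136.5 and 131 CPM in control (adjusted p = 0.12). Before adjustment these 2 were higher at a p under 0.05 (9.41% of all genes), and DESeq2 called both higher (3.46% of all genes).

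**Figure D3:**
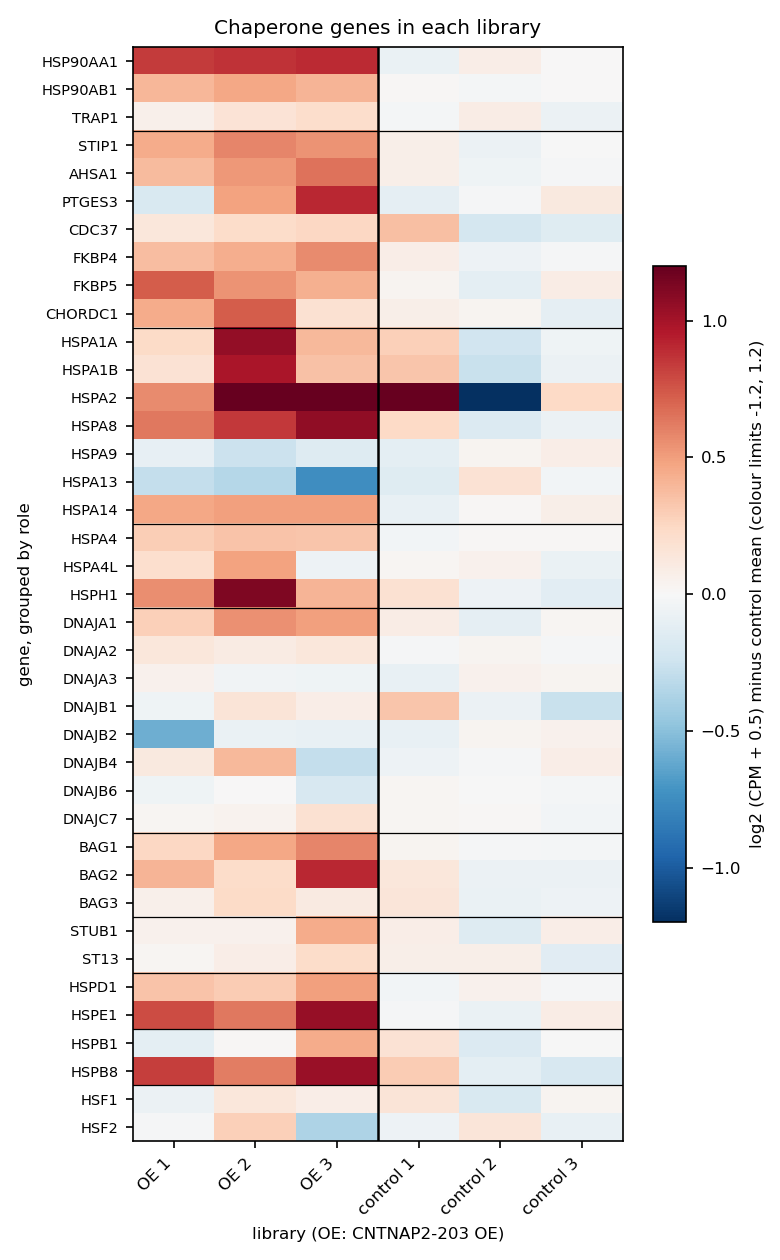
Log2 (CPM + 0.5) minus the control mean for the 39 chaperone genes (rows, grouped by role) in each of the 6 libraries (columns). Colours saturate at the ends of the scale, which HSPA2 exceeds. HSP90AA1 is even across the CNTNAP2-203 OE libraries, whereas HSPA1A, HSPA1B and HSPH1 are highest in CNTNAP2-203 OE replicate 2 and PTGES3, HSPA8 and HSPE1 in replicate 3.

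None of the 8 J-domain genes passed edgeR, which called 1.39% of all genes. Their median log2 fold change was 0.06, and 6 of 8 had overlapping groups, as had 13809 of all 18786 tested genes. Before adjustment 1 was higher at a p under 0.05 (9.41% of all genes), and DESeq2 called that 1 higher (3.46% of all genes). It was DNAJA1, a cytosolic partner of HSP70, at 413.5, 497 and 479 CPM in CNTNAP2-203 OE and 360.5, 315 and 346 CPM in control (log2 fold change 0.44, adjusted p = 0.0998). DNAJB1, the heat-inducible J-domain protein, was at 286 ± 20.8 CPM in CNTNAP2-203 OE and 278 ± 60.6 CPM in control, a log2 fold change of 0.04 whose 95% interval of -0.32 to 0.40 does not exclude a modest difference either way. The others, DNAJA2, DNAJA3, DNAJB2, DNAJB4, DNAJB6 and DNAJC7, lay between -0.24 and 0.12. DNAJB1 and DNAJC7 overlap genes on the other strand with 48.1% (TECR) and 117% (CNP) as many counts, and strand was not marked in these libraries.

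The BAG genes, further exchange factors of HSP70, had positive log2 fold changes (49.6% of all genes), and none passed edgeR (1.39% of all genes). BAG1 was at 43.0, 49.97 and 54.4 CPM in CNTNAP2-203 OE and 37.1, 35.8 and 35.6 CPM in control (log2 fold change 0.44, adjusted p = 0.109). BAG2, at 0.55, had no overlap between groups either, whereas BAG3, the stress-inducible member that links HSP70 to autophagy, was at 0.13 with overlapping groups. BAG1 and BAG2 were higher at a p under 0.05 before adjustment (9.41% of all genes), and DESeq2 called BAG1 higher (3.46% of all genes). STUB1, the ubiquitin ligase CHIP, and ST13, which stabilises HSP70 bound to ADP, had 0.19 and 0.11 (adjusted p = 0.515 and 0.645). STUB1 was at 46.8, 46.7 and 61.8 CPM in CNTNAP2-203 OE and 47.6, 40.5 and 47.6 CPM in control, so that its groups overlapped. JMJD8, on the other strand, overlaps STUB1 with 72.8% as many counts, and RAB23 overlaps BAG2 with 63.6%.

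In the mitochondrial chaperonin, HSPE1 (2:197499994-197503457, plus strand) rose 1.78-fold. It had 178, 159.9 and 214 CPM in CNTNAP2-203 OE, against 102, 98.0 and 109.8 CPM in control. The lowest CNTNAP2-203 OE library was well above the highest control (log2 fold change 0.83, SE 0.125, adjusted p = 0.0304). HSPD1, its neighbour on the opposite strand, had 1030, 1002 and 1142 CPM in CNTNAP2-203 OE and 792, 841 and 800.5 CPM in control, also without overlap, and did not pass (log2 fold change 0.38, adjusted p = 0.102).

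The ratio of HSPE1 to HSPD1 in FPKM was 0.3915, 0.361 and 0.4235 in CNTNAP2-203 OE and 0.292, 0.263 and 0.3104 in control (exact permutation test, two-sided p = 0.1, adjusted 0.133). HSPE1 has the shortest transcript of the members, at most 950 bases in GENCODE 29, and CNTNAP2-203 OE replicate 3, the library that differs by transcript length, gave its highest value. Without that library the log2 fold change of HSPE1 was 0.71 (adjusted p = 0.013). Exons of HSPD1 and HSPE1 overlap on opposite strands, and HSPD1 had 653% as many counts as HSPE1. Strand was not marked, so reads from the shared stretch cannot be told apart. The readthrough gene HSPE1-MOB4 had 0.444% as many counts as HSPE1.

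**Figure D4:**
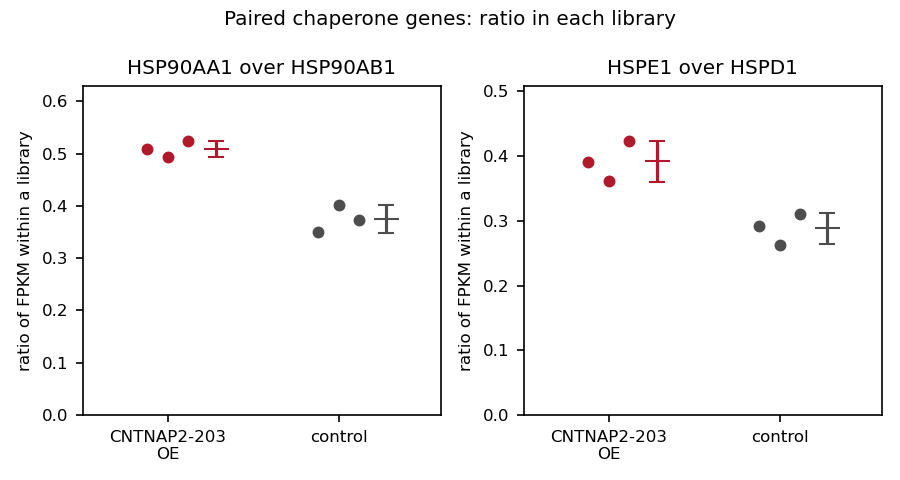
Ratio of FPKM within each library for HSP90AA1 over HSP90AB1 and for HSPE1 over HSPD1; points are libraries and the marks beside them the mean and SD of 3. The CNTNAP2-203 OE ratios (0.494 to 0.525 and 0.361 to 0.4235) lie above the control ratios (0.3498 to 0.402 and 0.263 to 0.3104) in both panels.

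The small heat shock proteins hold clients without ATP. HSPB1 was abundant, at 508 ± 89.2 FPKM in CNTNAP2-203 OE and 481 ± 54.7 FPKM in control, and its groups overlapped (log2 fold change 0.13, adjusted p = 0.725). HSPB8, a partner of BAG3, was the least abundant member, at 4.84, 4.09 and 5.66 CPM in CNTNAP2-203 OE and 3.23, 2.28 and 2.13 CPM in control. The groups did not overlap, and the log2 fold change of 0.93 did not pass (adjusted p = 0.0993). The transcription factor HSF1 was at 52.2, 60.3 and 57.9 CPM in CNTNAP2-203 OE and 61.1, 48.1 and 56.0 CPM in control (log2 fold change 0.04, 95% interval -0.23 to 0.32). HSF2, a related factor, was at 12.7 ± 2.95 CPM in CNTNAP2-203 OE and 12.8 ± 1.19 CPM in control. Neither factor was under 0.05 before adjustment, and DESeq2, limma-voom and limma-trend called neither. RNA levels do not show the activity of HSF1, which is set on the protein.

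Set against the sites printed above, 2 of the 7 members with a 3-unit element rose (HSP90AA1 and HSPA8). So did 2 of the 27 with none in their windows (STIP1 and HSPE1). For HSPE1 this rests on the window edge. Its window starts at chr2:197500129, and the printed HSPD1 site ends at chr2:197500090, where exons of both genes are annotated. Of all tested genes with a window, 3.57% of the 56 with the element, these members included, and 1.10% of the others were called higher. Among members, the median log2 fold change was 0.44 with the element and 0.23 without it. Over all tested genes with a window, members included, the medians were 0.0705 and 0.0095. DNAJB6 carries the element and was at 161, 168 and 146 CPM in CNTNAP2-203 OE and 170.0, 167 and 165 CPM in control. The shorter motif GAANNTTC or TTCNNGAA was in 13.5% of all windows and is part of the 3-unit motif. It was found in 17 of the 34 members with a window, among them STIP1, HSPA1A and HSPA1B with 1 match each. Of these 17 members edgeR called 3 higher, against 1.12% of all tested genes with a window, and their median log2 fold change was 0.44. Among 49 tested genes with the 3-unit element that are no members, the median was -0.01, and edgeR called none. Of these 49, 10 were higher and 4 lower at an unadjusted p under 0.05 (9.41% and 7.84% of all genes), DESeq2 called 5 higher (3.46% of all genes), and limma-voom and limma-trend called none.

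Other genes of the same pathways were taken from 7 lists fixed with the members (heat-inducible genes, HSF regulators, further HSP90 cochaperones, further J-domain proteins and HSP70 exchange factors, mitochondrial import and quality control, small heat shock proteins, and prefoldin). Of 70 tested genes edgeR called none, 21 were higher and 3 lower at an unadjusted p under 0.05, DESeq2 called 6 higher and 1 lower, and limma-voom and limma-trend none. Over all genes edgeR called 0.798% higher and 0.596% lower, 9.41% were higher and 7.84% lower before adjustment, and DESeq2 called 3.46% higher and 2.53% lower. The median log2 fold change was 0.19, and 25 of the 70 had all CNTNAP2-203 OE libraries above all controls, an order held by 13.7% of all genes and 18.3% of those with a mean of at least 10 CPM. The 9 heat-inducible genes had a median of 0.43, the 6 HSF regulators -0.41 and the 17 further J-domain proteins and exchange factors 0.08. Of the HSF regulators 5 were negative and 1 positive, and 4 had overlapping groups, as had 13809 of all 18786 tested genes. EP300 was at 112, 115 and 57.8 CPM in CNTNAP2-203 OE and 109, 140 and 132 CPM in control. FBXW7 was at 13.3, 12.2 and 4.26 CPM against 14.9, 13.3 and 13.1 CPM. Both were lowest in CNTNAP2-203 OE replicate 3, the library that differs by transcript length. Among 15 further HSP90 cochaperones the median was 0.25, with 9 higher and none lower at an unadjusted p under 0.05 (9.41% and 7.84% of all genes). CACYBP, a cochaperone that binds a ubiquitin ligase, was at 96.2, 107 and 119 CPM in CNTNAP2-203 OE and 78.8, 76.9 and 67.0 CPM in control (log2 fold change 0.53, adjusted p = 0.0776). SERPINH1, the collagen chaperone HSP47, whose promoter window also holds the 3-unit element, was at 311, 308 and 332 CPM in CNTNAP2-203 OE and 252, 226 and 229 CPM in control (adjusted p = 0.0766).

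In the 16 genes of mitochondrial import and quality control, LONP1, the matrix protease, had the smallest p and a negative value, at 120.2, 108 and 113 CPM in CNTNAP2-203 OE and 176, 149.6 and 157 CPM in control (log2 fold change -0.50, adjusted p = 0.0625). The list's median was 0.18. The 6 prefoldin genes, whose product hands new chains to the cytosolic chaperonin, were all positive (median 0.35), as were 49.6% of all genes. PFDN5, at 0.42 (adjusted p = 0.231), had 125, 114 and 174 CPM in CNTNAP2-203 OE and 105.5, 98.7 and 104.5 CPM in control. Each of the 6 was highest in CNTNAP2-203 OE replicate 3, the library that differs by transcript length. Of 8 genes in the small heat shock list only 2 were tested. HSPB11 had the smaller p, at 0.74 (adjusted p = 0.0798), and CRYAB had 7 to 27 counts. DNAJC9, a histone-binding J-domain protein, had 0.43 (adjusted p = 0.0812), and HSF4 had -0.40 (adjusted p = 0.157).

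The 4 calls depended on which libraries were in the fit. With 1 library left out, HSP90AA1 and HSPE1 passed without CNTNAP2-203 OE replicate 2 or 3, STIP1 passed without CNTNAP2-203 OE replicate 3, and HSPA8 passed in none of the 6 fits. No member passed without CNTNAP2-203 OE replicate 1 or any 1 of the 3 controls, whereas 9 passed without CNTNAP2-203 OE replicate 3. Calls over all genes moved too: 0.0411% to 0.0828% were called higher in the 4 fits with no member, 0.222% without CNTNAP2-203 OE replicate 2 and 1.59% without CNTNAP2-203 OE replicate 3. The log2 fold changes stayed between 0.82 and 0.91 for HSP90AA1, 0.49 and 0.56 for STIP1, 0.73 and 0.98 for HSPA8, and 0.71 and 0.92 for HSPE1, while the adjusted p reached 0.101, 0.232, 0.215 and 0.164 in the same order. STIP1 and HSPA8 also missed the threshold with upper-quartile factors in edgeR (adjusted p = 0.0548 and 0.0519) and by limma-trend on log2 FPKM (0.0545 and 0.0579), and HSPA8 missed it by limma-voom (0.0548).

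**Figure D5:**
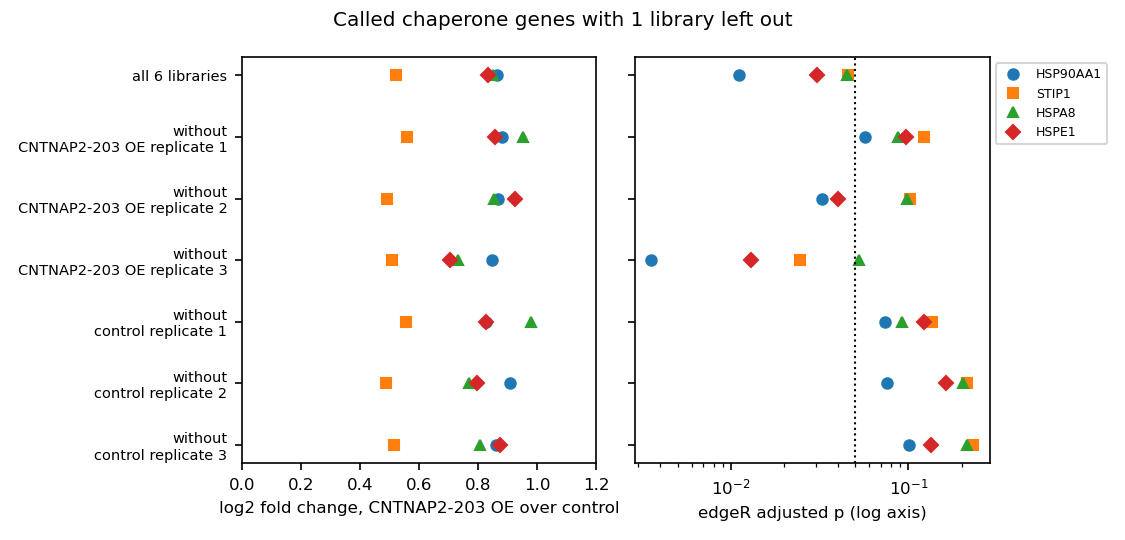
Log2 fold change (left) and edgeR adjusted p on a log axis (right) of the called genes with all 6 libraries and with each library left out; the dotted line is the threshold of 0.05. The fold changes shift little between fits, while the adjusted p rises above 0.05 for each of the 4 genes in at least 4 of the 6 fits.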

How the data were processed

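The authors deposited a table of raw counts per gene, whole numbers that were not normalized, and a table of log2 FPKM with the same genes. Per the submitters' processing notes, reads were trimmed with Trim Galore 0.4.4 and the build is hg38; for the aligner, counter and annotation, and for reads that map to several genes, the methods were not given among these sources. Per the labels' protocols, libraries were made with a kit that does not mark strand. The log2 values deposited by the authors behave as log2(FPKM + 1): the gene length they imply varied between libraries by a median of 0.102%, and by 3.43% without the offset.

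Counts were tested with edgeR 4.0.16 (R 4.3.3; filterByExpr, minimum count 10; TMM; robust quasi-likelihood test; group as the only term) and adjusted over 18786 genes. SE is the absolute log2 fold change over the square root of F. DESeq2 1.42.0 and limma 3.58.1 were alternatives. Scripts were tested on simulated data. CPM are TMM-scaled, and ± is the SD of 3 libraries. Gene positions are from GENCODE 29 (GRCh38), promoter windows from RefSeq. All 39 members are named; each called member and the smallest p of each other role have their value in every library, others were added after their values were seen. Members and lists were chosen with earlier results of these data known. 1 marker gene of another cell type is not reported here.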

Additional observations from a re-analysis of the deposited data

How the results depend on the processing

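No member was called lower, and every called member kept its direction, in each setting run. The count of all genes called (262) was 1125 by DESeq2, 166 by limma-voom and 653 with length and GC trends removed, a setting chosen after seeing the data. The count of members called higher (4) was 15 by DESeq2, 10 with length and GC trends removed, and 2 both with upper-quartile factors and by limma-trend on log2 FPKM. Of all genes, 3.46%, 2.15%, 0.633% and 0.527% were called higher in these settings, in the same order. The share was 0.798% in the edgeR test above. The members' median (0.38) was 0.33 by limma-trend, whose scale understates low genes. With 1 library left out, the counts ran from 14 to 545 for all genes and from 0 to 9 for members, and the median from 0.30 to 0.40; both counts were highest without CNTNAP2-203 OE replicate 3. Deviations from the group means correlated at -0.12, 0.04 and -0.04 for replicate numbers 1, 2 and 3, and no library correlated best with its own number. With 3 libraries a group, these values cannot decide whether the numbers pair the libraries. With a replicate block, 17 genes and 0 members were called. Signs changed only in genes near 0. With 1 library left out the log2 fold change ran from -0.0581 to 0.0131 for DNAJA3, -0.087 to 0.23 for DNAJB1, -0.0726 to 0.26 for DNAJB4, -0.0591 to 0.24 for HSPB1, -0.0445 to 0.13 for HSF1 and -0.19 to 0.14 for HSF2. With length and GC trends removed, DNAJB1 was at -0.0002 and DNAJB6 at 0.0515. Summing HSPA1A and HSPA1B changed no call. The causes of these differences were not tested. HSPB8, at 2.13 to 5.66 CPM, was the member measured at the lowest depth.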
